A study of Sus scrofa with 15 samples.

Results

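The genes of the mitochondrial genome were examined in liver RNA of piglets given lipopolysaccharide (LPS), the endotoxin of Gram-negative bacteria, or saline. All rows of the count table placed on the mitochondrial chromosome (MT) were taken, which gave 37 of 31908 genes. By identical start and length in the RefSeq gene table of assembly Sscrofa11.1, 37 of these 37 rows were matched to a gene type, namely 2 rRNA genes, 13 protein-coding genes and 22 tRNA genes. MT coordinates below are those of the deposited table, whose genome build was not given in the sources used here.

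The animals were male growing piglets of the cross Duroc x Large White x Landrace. Piglets of the LPS group received 80 μg/kg LPS into the peritoneal cavity, those of the CON group received sterile saline, and livers were taken 4 h later. The study used 6 piglets per group, and each group gave 3 libraries of polyadenylated RNA set aside before an m6A antibody was added. Wherever values are listed by group below, they run in the order of replicates 1, 2 and 3. The labels do not say whether a library came from 1 piglet, so p-values measure the spread between these libraries. Whole liver holds several cell types, and fewer cells of a type cannot be told apart from less RNA per cell.

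Mitochondrial DNA is a small circle that codes for subunits of the respiratory chain and of ATP synthase, the machinery with which hepatocytes make most of their ATP. Both strands are transcribed as long precursors, which are cut mainly at the tRNA genes that lie between the other genes, so levels of single RNAs also depend on processing and stability. The rRNAs build the mitochondrial ribosome, and all other respiratory chain subunits, the RNA polymerase and the RNA-processing enzymes are coded in the nucleus. Most mitochondrial mRNAs carry short poly(A) tails, which is how they enter a library selected for polyadenylated RNA. The tails of single mRNAs, ND6 included, were not measured. A difference in their capture cannot be told apart from a difference in level.

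Total counts were 5927348 to 10351491 in the CON libraries and 4348478 to 19967417 in the LPS libraries. LPS replicate 3 stood apart, with the most counts and a TMM factor (edgeR's scaling factor for library composition) of 0.735 against 0.980 to 1.11 in the others. A call required an adjusted p below 0.05 together with a fold over 1.5. Across the 12774 genes kept by the low-count filter, edgeR called 7, or 0.0548%, and 982 of 13632 genes, or 7.2%, without LPS replicate 2. Hepatocyte markers such as ALB and TTR held the largest summed level of the marker lists in every library, at 79427 to 96373 CPM (counts scaled to a common library size) for CON and 65364 to 130723 for LPS. That sum includes FGB at 8076 to 12681 and 14520 to 44840 CPM. Of the 14 tested hepatocyte markers 8 had a fitted change below 0 and 6 above, with a median of -0.18 on the log2 scale. In CPM, 3 (ALB, CYP2E1 and ASGR1) were wholly lower in LPS and 1 (FGB) wholly higher. Over all tested genes these shares were 9.8% and 6.52%, and these 4 markers were named after their values were seen. Neutrophil markers summed to 22.6 to 34.1 CPM with saline against 88.4 to 326 with LPS. Of 7 tested neutrophil markers 4 were wholly higher in LPS, where 6.52% of all tested genes were. Among them, S100A8 (counts of 4, 2 and 4 with saline) and LTF (3, 0 and 10) passed the low-count filter only through the LPS libraries where they are high. That number of markers is therefore no support for a change. Red blood cell or platelet markers summed to 81.3 to 107 and 103 to 376 CPM. Kupffer cell markers summed to 2523 to 4071 and 2723 to 4205 CPM, a sum that includes CD14 at 516 to 819 and 803 to 2322 CPM. Of the 12 tested Kupffer markers 11 had a fitted change below 0 (the list median was -0.48 on the log2 scale), and 3 (MRC1, VSIG4 and TIMD4, named after their values were seen) were wholly lower in LPS, where 9.8% of all tested genes were. Endothelial markers summed to 258 to 475 and 165 to 289 CPM, a sum that includes CLEC4G at 15.2 to 259 and 12.6 to 82.7 CPM. Of the 8 tested endothelial markers 7 had a fitted change below 0 and 1 above, with a list median of -0.62. In CPM, 2 (TEK and OIT3) were wholly lower in LPS and 1 (LYVE1) wholly higher, where 9.8% and 6.52% of all tested genes were. These were also named after their values were seen. The part of these cell types in the mitochondrial values was not tested.

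The share of a library's counts that fell on mitochondrial genes did not separate the groups. It was 2.75%, 1.86% and 1.45% with saline against 3.22%, 2.97% and 1.17% with LPS. The highest value and the lowest value both belonged to the LPS group. With 110301 to 284036 mitochondrial counts per library, the 95% Wilson interval of each share was narrow, for example 3.21% to 3.24% in LPS replicate 1 and 1.16% to 1.17% in LPS replicate 3. Such intervals cover counting error only.

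The mean share was 2.02% ± 0.67 with saline against 2.45% ± 1.12 with LPS (SD, n = 3 per group), so the difference of 0.43 percentage points was smaller than either SD. Leaving out single libraries gave differences from 0.045 points without LPS replicate 1 to 1.07 points without LPS replicate 3, and 0.173 points without LPS replicate 2. After TMM scaling, the 37 genes summed to 25317, 17186 and 14848 CPM for CON and 30482, 26637 and 15889 CPM for LPS. LPS replicate 3 lay among the CON libraries on this scale.

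**Figure D1:**
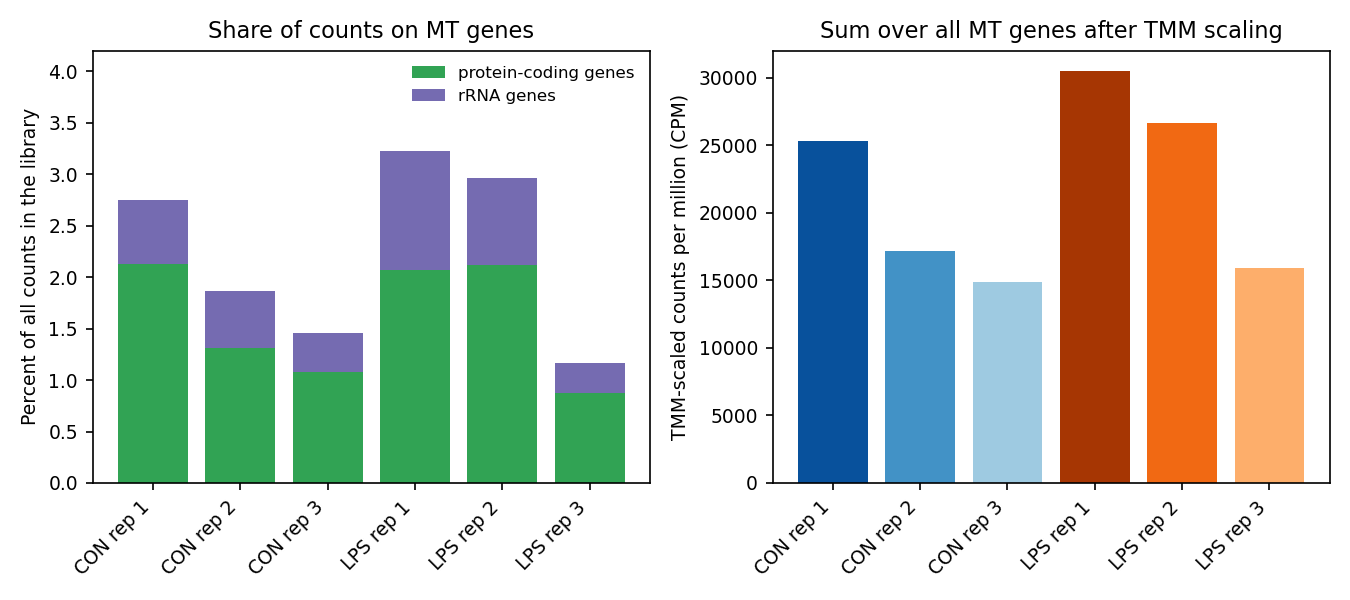
Left, percent of all counts in each library that fell on mitochondrial protein-coding genes (green) and rRNA genes (purple). Right, sum of TMM-scaled CPM over all mitochondrial genes, with 1 bar per library (CON blue, LPS orange). LPS replicates 1 and 2 have the highest bars, at 30482 and 26637 CPM, and LPS replicate 3, at 15889 CPM, lies between CON replicates 3 and 2.

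Both rRNA genes were detected in every library, although rRNA was not the target of the poly(A) selection. Together they held 22.7% to 29.4% of mitochondrial counts with saline against 25.4% to 35.8% with LPS. The shorter rRNA gene (ENSSSCG00000018061, MT:1246-2205, 960 bases), which lies where mammalian mitochondria carry the small-subunit 12S rRNA, measured 398, 385 and 338 CPM with saline against 623, 256 and 379 CPM with LPS. LPS held both the highest and the lowest value. The edgeR log2 fold change came to 0.17 (standard error 0.37, adjusted p = 0.889), and it turned to -0.18 when libraries were scaled to their mitochondrial total.

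The longer rRNA gene (ENSSSCG00000018063, MT:2274-3844, 1571 bases), in the place of the large-subunit 16S rRNA, measured 5355, 4674 and 3498 CPM with saline against 10294, 7333 and 3663 CPM with LPS. LPS replicates 1 and 2 exceeded all CON libraries, and LPS replicate 3 lay at the low end of them. The edgeR log2 fold change came to 0.65 (standard error 0.42, adjusted p = 0.559). Counts on the longer gene were 12.0 ± 1.6 times those on the shorter gene with saline against 18.3 ± 9.6 times with LPS, where the ratio was 16.5, 28.6 and 9.66 in replicates 1, 2 and 3. The 3 ratios of the CON group, 10.3 to 13.5, fell inside the LPS range.

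Complex I, the NADH dehydrogenase through which electrons enter the respiratory chain, takes 7 subunits from the mitochondrial genome. ND1 (ENSSSCG00000018065, MT:3922-4876), a membrane subunit beside the quinone site, measured 759.9, 285 and 301 CPM with saline against 1402, 1452 and 342 CPM with LPS. ND2 (ENSSSCG00000018069, MT:5087-6128), a subunit of the proton-pumping arm, had 484, 296 and 220.0 CPM against 897, 876 and 153 CPM. In both genes LPS replicates 1 and 2 were close to each other and above every CON library, whereas LPS replicate 3 lay within the CON range for ND1 and below it for ND2. The log2 fold changes were 1.25 for ND1 (standard error 0.58, adjusted p = 0.424, edgeR) and 0.94 for ND2 (standard error 0.60, adjusted p = 0.555), and that of ND1 was 1.86 without CON replicate 1.

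In ND4 and ND5, which also belong to the pumping arm, LPS replicates 1 and 2 were not both above the CON libraries. ND4 (ENSSSCG00000018087, MT:11359-12736) measured 2637, 1442 and 1581 CPM with saline against 1299, 1604 and 1230.2 CPM with LPS, a log2 fold change of -0.45 (standard error 0.35, adjusted p = 0.633, edgeR). ND5 (ENSSSCG00000018091, MT:12935-14755) had 1397, 759.9 and 1001 CPM against 849, 1476 and 607 CPM, a log2 fold change of -0.11 (standard error 0.41, adjusted p = 0.940). The groups overlapped in both, and the value of ND5 depended on which library was left out, from -0.53 to 0.16.

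ND3 (ENSSSCG00000018084, MT:10653-10998), a small subunit near the joint of the complex's arms, measured 228, 122 and 129.7 CPM with saline against 258, 272 and 108 CPM with LPS. ND4L (ENSSSCG00000018086, MT:11069-11365), whose last 7 bases overlap ND4, had 89.2, 51.1 and 57.6 CPM against 72.6, 134 and 45.3 CPM. Their log2 fold changes of 0.41 and 0.35 had adjusted p values of 0.739 and 0.774 (edgeR), and in both genes the lowest value of all libraries was that of LPS replicate 3. The value of ND4L turned to -0.014 when libraries were scaled to their mitochondrial total.

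ND6 (ENSSSCG00000018092, MT:14739-15266) is the only protein-coding gene of the 13 on the minus strand, where it lies with 8 of the 22 tRNA genes, and it shares 17 bases with the end of ND5 on the plus strand. It measured 512, 313 and 283 CPM with saline against 611, 987 and 379.6 CPM with LPS. LPS replicate 3 lay above CON replicates 2 and 3 and below CON replicate 1. The edgeR log2 fold change came to 0.84 (standard error 0.42, adjusted p = 0.458). The strand setting of the counting was not stated, so RNA from the opposite strand cannot be told apart from ND6 mRNA.

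CYTB (ENSSSCG00000018094, MT:15342-16481), cytochrome b, is the single mitochondrial subunit of complex III, which passes electrons from quinol to cytochrome c. It measured 2235, 1362 and 1104 CPM with saline against 1584, 1552 and 1055 CPM with LPS. The groups overlapped, and edgeR gave a log2 fold change of -0.17 (standard error 0.37, adjusted p = 0.889).

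Complex IV, the cytochrome c oxidase that reduces oxygen, takes its catalytic core from 3 mitochondrial genes. COX1 (ENSSSCG00000018075, MT:6511-8055), which binds heme and copper, measured 4665, 3584 and 2801 CPM with saline against 5497, 4235 and 3928 CPM with LPS. COX2 (ENSSSCG00000018078, MT:8203-8890), which accepts electrons from cytochrome c, had 1988, 877 and 665 CPM against 1803, 1783 and 955 CPM. COX3 (ENSSSCG00000018082, MT:9800-10583), the third core subunit, had 2004, 1624 and 1502 CPM against 2867, 1979.7 and 1771 CPM. The groups overlapped in each gene through CON replicate 1, which was above LPS replicate 3 in all of them. Log2 fold changes were 0.31, 0.36 and 0.37, with standard errors of 0.34, 0.46 and 0.33 and adjusted p values of 0.752, 0.784 and 0.686 (edgeR). The value of COX2 was 0.97 without CON replicate 1 and 0.11 without CON replicate 3.

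ATP synthase takes 2 subunits of its membrane part from the mitochondrial genome. ATP6 (ENSSSCG00000018081, MT:9120-9800), which forms the proton path, measured 2555, 1411 and 1365 CPM with saline against 2060.2, 2087 and 1267 CPM with LPS. The means of 1777 ± 674 and 1805 ± 466 CPM (SD, n = 3 per group) were close, and the log2 fold change of 0.02 (standard error 0.38, adjusted p = 0.991, edgeR) took either sign with the scaling. Its neighbour ATP8 behaved differently and is described below.

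Across the 16 mitochondrial genes that passed the filter, 13 fitted changes were above 0 and 3 below (ND4, ND5 and CYTB), with a median log2 fold change of 0.37 against 0.0056 over all tested genes. edgeR called 0 of the 16. At an unadjusted p below 0.05 it listed 1, ATP8, where 6.18% of all tested genes were listed as higher and 6.33% as lower. A fit with the replicate number as a block called 0.399% of tested genes, ATP8 among them. In CPM, LPS values lay wholly above or wholly below CON values in 0 of the 16 genes, against 6.52% and 9.8% of tested genes.

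The same libraries set the extremes in gene after gene. CON replicate 1 was the highest CON library for each of the 15 rRNA and protein-coding genes. LPS replicate 3 was below both other LPS libraries in 14 of the 15, the shorter rRNA being the exception, and within or below the CON range in all 15. The highest of all 6 libraries was LPS replicate 1 for 5 genes, LPS replicate 2 for 6 and CON replicate 1 for 4. These genes share their precursors and their libraries and are not independent of each other.

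**Figure D2:**
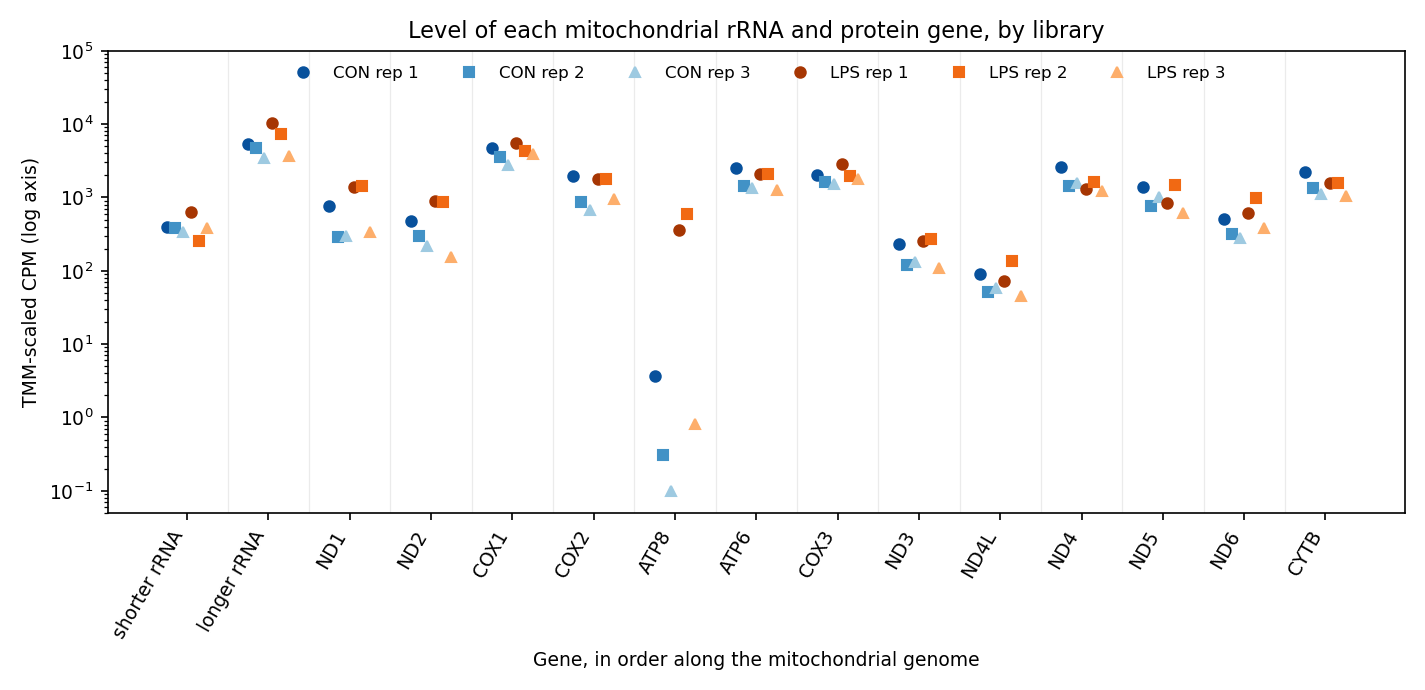
TMM-scaled CPM (log axis) of the mitochondrial rRNA and protein-coding genes in genome order, with 1 point per library (CON blue, LPS orange; circle, square and triangle for replicates 1, 2 and 3). The CON and LPS points overlap for every gene, and ATP8 spans the widest range, from 0.0986 CPM in CON replicate 3 to 595 CPM in LPS replicate 2.

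Levels were compared between genes only as CPM per kilobase of gene, averaged over the 6 libraries. The longer rRNA was highest at 3694 CPM per kilobase, followed by COX1 at 2666, ATP6 at 2629, COX3 at 2497 and COX2 at 1955. CYTB followed at 1300, ND4 at 1184, ND6 at 974 and ND1 at 792, and ATP8 at 780 through LPS replicates 1 and 2 alone. At the low end were ND5 at 557, ND3 at 538, ND2 at 468, the shorter rRNA at 413 and ND4L at 253. No neighbours in this order had ranges over the libraries that were apart, so adjacent places in this order were not distinguished. The place at the top also varied between libraries, since ATP6 was above the longer rRNA in CON replicate 1 (3752 against 3409 CPM per kilobase) and COX1 was above it in LPS replicate 3 (2543 against 2332).

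ATP8 (ENSSSCG00000018080, MT:8959-9162, 204 bases), a short membrane subunit of ATP synthase, showed the widest range of the 15 genes. Its counts were 41, 2 and 1 with saline against 1632, 3646 and 12 with LPS. In CPM these were 3.65, 0.312 and 0.0986 against 355, 595 and 0.817. LPS replicates 1 and 2 were far above all CON libraries, and LPS replicate 3 lay between CON replicates 1 and 2 although it was the deepest library.

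The log2 fold change of ATP8 was 7.77 with a standard error of 1.98, and the gene was not called by edgeR (unadjusted p = 0.00344, adjusted p = 0.203). The fitted value was 10.62 without CON replicate 1, 8.36 without LPS replicate 3 and 6.92 without LPS replicate 2. ATP8 passed the low-count filter only with LPS replicates 1 or 2, in which it is high. In the fit of all libraries it also needed CON replicate 1, which had 41 counts. These fits, and the one with a replicate block, are therefore no support. DESeq2 called ATP8 (log2 fold change 7.92, adjusted p = 0.00608), in a fit that called 2.81% of the genes it tested. DESeq2 kept genes by their mean count, and most ATP8 counts came from LPS replicates 1 and 2. That call is therefore not taken as support either. edgeR without the filter on low counts called it too (log2 fold change 7.75), in a fit that called 3.76%. Over the alternatives that tested ATP8 its adjusted p ran from 4.00e-40 without the filter to 0.586 without CON replicate 1, and it was 0.0610 without LPS replicate 3. The filter of 10 counts in all libraries removed ATP8, which had 2 and 1 counts in CON replicates 2 and 3. Summed over the libraries, the 5290 LPS counts against 44 CON counts gave a ratio of 131 after scaling to library size, with exact 95% bounds of 97.7 and 181 that reflect counting error only and not the gap between LPS replicates 1 and 2 and LPS replicate 3.

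The protein-coding neighbours of ATP8 did not show such a range. Its last 43 bases overlap ATP6, with which it shares 1 mRNA, and 161 bases are its own. ATP8 had 0.00143, 0.000221 and 0.0000723 counts per ATP6 count with saline against 0.172, 0.285 and 0.000645 with LPS. COX2 on its left and ATP6 on its right had at most 28663 and at least 5629 counts in any library. How reads that touch 2 overlapping genes were counted was not given in the sources used here, and its part in the ATP8 counts was not tested.

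The tRNA gene directly before ATP8 (ENSSSCG00000018079, MT:8891-8957, 67 bases) had its counts in the same libraries. It had counts of 0, 0 and 1 with saline against 17, 61 and 1 with LPS. This gave a ratio of 86.3 with an exact 95% interval from 15.1 to 3453, again for counting error only. The gene fell below the filter on low counts. Without that filter edgeR called it (log2 fold change 6.46, adjusted p = 8.67e-09), in a fit that called 3.76% of its genes. Its DESeq2 adjusted p was 0.0635. It was also called without LPS replicate 3, in a fit that called 0.461% of its genes, but there it entered the fit through the 2 LPS libraries in which it is high, so that call is no support. In fits without 1 CON library each it had adjusted p values from 0.400 to 0.706.

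ATP8 and the tRNA genes are short, and the part of gene length in their counts was not tested. The 2376 genes under 250 bases outside the mitochondrial genome held 648, 547 and 467 CPM of the non-mitochondrial total with saline against 445, 358 and 393 with LPS. ATP8 was examined more closely after its values were seen.

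**Figure D3:**
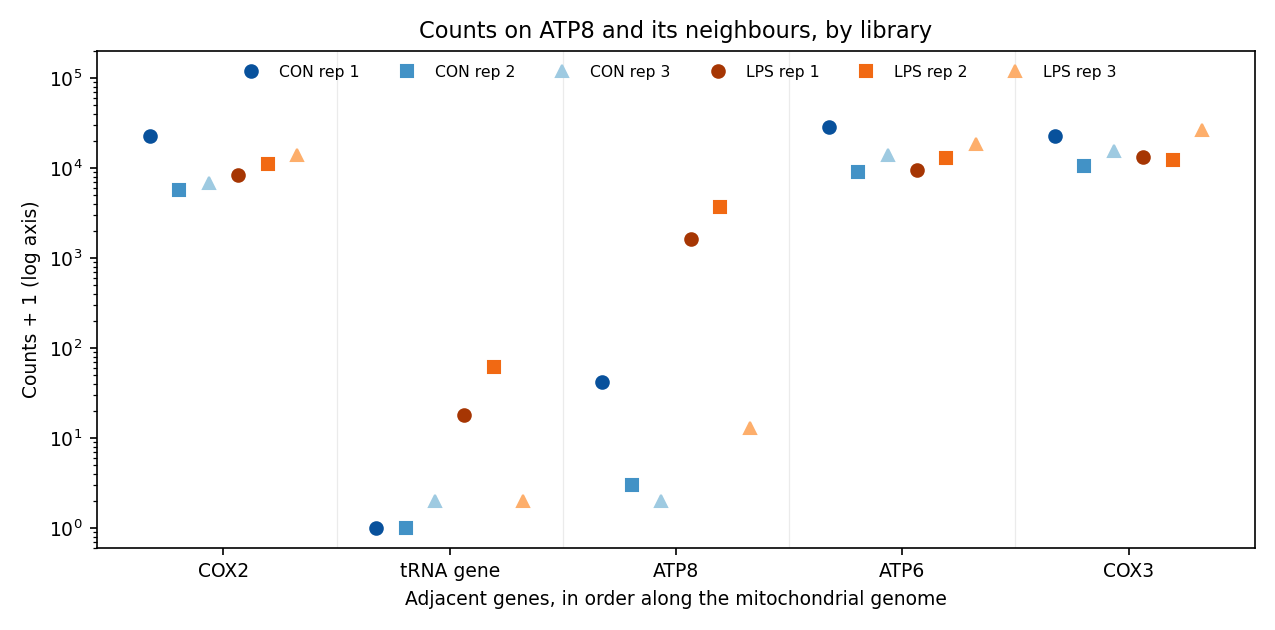
Counts plus 1 (log axis) on 5 adjacent mitochondrial genes in genome order, with 1 point per library (CON blue, LPS orange; circle, square and triangle for replicates 1, 2 and 3). ATP8 and the tRNA gene before it have high counts in LPS replicates 1 and 2, with 1632 and 3646 on ATP8, and few in LPS replicate 3 and the CON libraries, while COX2, ATP6 and COX3 have at least 5629 counts in every library.

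The 22 tRNA genes were almost without counts. They are 59 to 75 bases long, and mature tRNAs carry no poly(A) tail. Together they had 297 counts over all 6 libraries, namely 75, 1 and 20 with saline against 47, 100 and 54 with LPS. The highest count of any tRNA gene in a library was 61, and 3 tRNA genes had 0 counts in all 6 libraries. A count of 0 allows up to 3 counts, that is 0.00106% to 0.00272% of a library's mitochondrial counts.

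Only 1 tRNA gene, ENSSSCG00000018085 (MT:11000-11068) between ND3 and ND4L, passed the filter. It had counts of 19, 1 and 1 with saline against 0, 8 and 27 with LPS, with a log2 fold change of 0.72 (standard error 1.07, adjusted p = 0.816, edgeR). The third of the tRNA genes by mean CPM, ENSSSCG00000018060 (MT:1176-1245) before the shorter rRNA, had 0, 0 and 1 counts against 10, 4 and 1. The remaining tRNA genes had 14 counts or fewer in every library. Reads of unprocessed precursors that cross a tRNA gene cannot be told apart from reads of the tRNA, and no tRNA gene had CPM values that separated the groups.

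The make-up of the mitochondrial counts was then compared within libraries, as the percent of mitochondrial counts on each gene, which does not depend on scaling between libraries. The 95% bounds for counting error, from the normal approximation at its widest, were at most 0.295 percentage points to either side. Of the 15 rRNA and protein-coding genes, 3 had LPS values wholly below the CON values and 0 wholly above. Over all tested genes, in CPM, 9.8% were wholly below and 6.52% wholly above. ND4 took 10.4%, 8.39% and 10.6% of mitochondrial counts with saline against 4.26%, 6.02% and 7.74% with LPS.

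CYTB took 8.83%, 7.93% and 7.44% against 5.20%, 5.83% and 6.64%, and ATP6 took 10.1%, 8.21% and 9.19% against 6.76%, 7.83% and 7.97%. Here LPS replicate 3, which resembled the CON group in the summed level, had the LPS value nearest to the CON range in all of these genes. Leaving out LPS replicate 3 moved the mean difference for ND4 from -3.81 to -4.68 percentage points, and leaving out LPS replicate 1 moved it to -2.94. The mean difference for CYTB was -2.18 percentage points, and -3.47 when genes overlapping on the same strand were left out. That for ATP6 was -1.64, and -3.24 when counts per kilobase were used. Both alternatives take the percent of another total, so their differences are not on the same scale as the first ones. Percentages of 1 total are tied to each other, so a lower share of ND4 does not by itself mean less ND4 RNA.

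**Figure D4:**
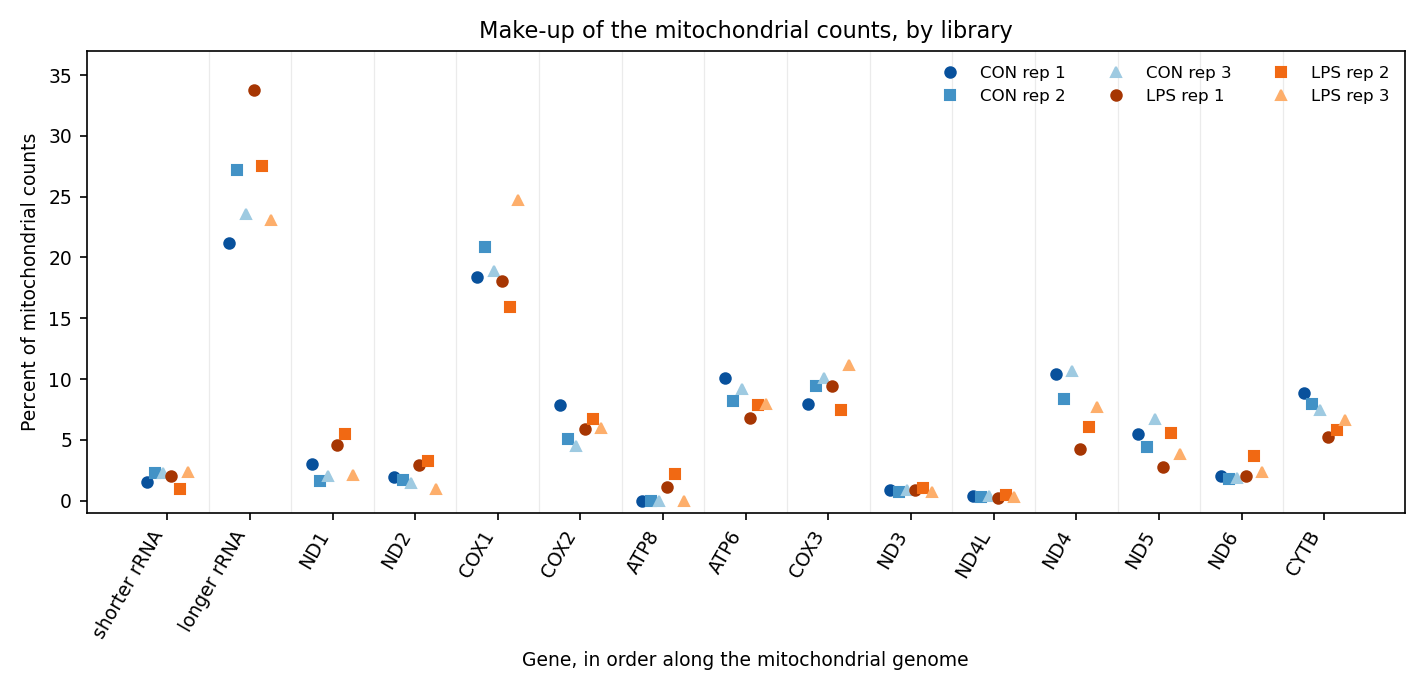
Percent of each library's mitochondrial counts on each rRNA and protein-coding gene in genome order, with 1 point per library (CON blue, LPS orange; circle, square and triangle for replicates 1, 2 and 3). The LPS points lie below the CON points for ATP6, ND4 and CYTB, where ND4 ranges from 8.39% to 10.6% under CON and from 4.26% to 7.74% with LPS.

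Ratios between single genes also use no scaling between libraries. ND6 counts per ND5 count were 0.366, 0.411 and 0.283 with saline against 0.720, 0.669 and 0.625 with LPS. The means were 0.354 ± 0.065 and 0.671 ± 0.048 (SD, n = 3 per group), and the groups were further apart than either SD. ND6 per ND4 was 0.194, 0.217 and 0.179 against 0.471, 0.616 and 0.309, and ND6 per CYTB was 0.229, 0.229 and 0.256 against 0.386, 0.636 and 0.360.

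In these ND6 ratios LPS replicate 3 lay with the other LPS libraries, at their low end. ND1 per ND4 was 0.288, 0.198 and 0.190 against 1.08, 0.905 and 0.278, and ND2 per ND4 was 0.184, 0.206 and 0.139 against 0.690, 0.546 and 0.124, so in those ratios LPS replicate 3 lay within or below the CON values. An exact permutation test of 3 libraries against 3 cannot give a two-sided p below 0.1, and none is given because the ratios were singled out after their values were seen. Among all 105 pairs of the 15 genes, 17 had ratios that did not overlap between the groups, a share near the sum of the 6.52% and 9.8% of tested genes whose CPM did not overlap. ND4 took part in 7 of these pairs, ND6 in 5, and ND5 and CYTB in 4 each.

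**Figure D5:**
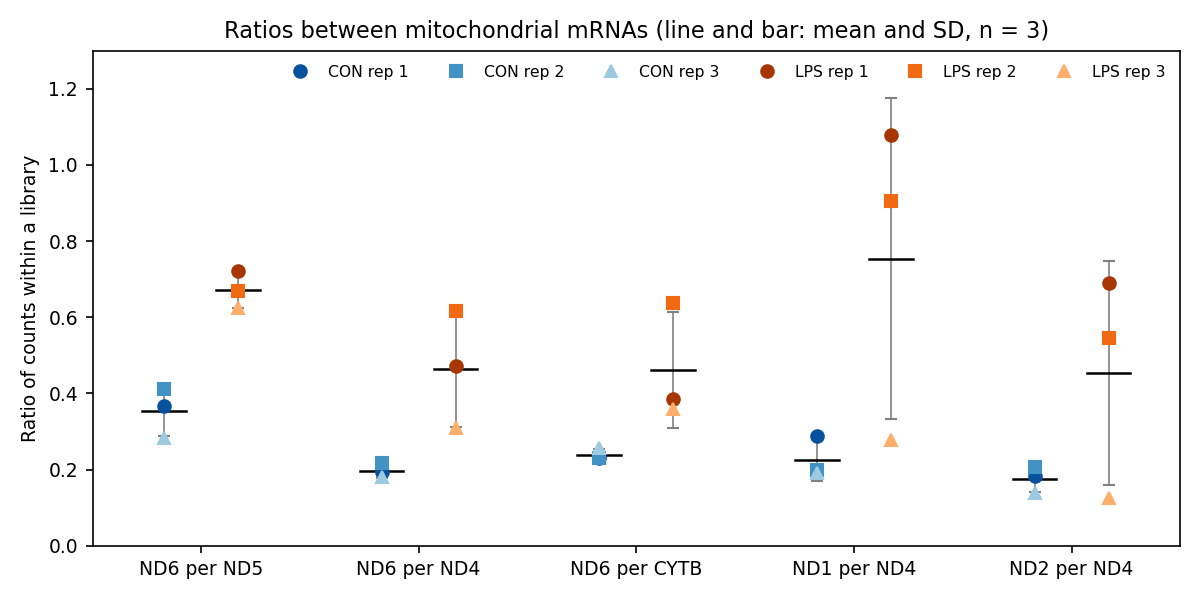
Ratios of counts between mitochondrial mRNAs within each library, with 1 point per library (CON blue, LPS orange; circle, square and triangle for replicates 1, 2 and 3) and the mean and SD of each group (black line and grey bar, n = 3). The ND6 ratios are apart between the groups, with ND6 per ND5 at 0.283 to 0.411 in CON and 0.625 to 0.720 in LPS, whereas ND1 per ND4 and ND2 per ND4 overlap through LPS replicate 3.

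The nuclear partners of these genes were described from lists written from general knowledge. Of 83 nuclear-encoded subunits of complexes I to IV, cytochrome c and ATP synthase, 59 were tested, of which edgeR called 0, with 38 fitted changes above 0 and 21 below and a median log2 fold change of 0.13. By complex the medians were 0.12 for complex I, -0.41 for complex II, 0.25 for complex III with cytochrome c, 0.16 for complex IV and 0.02 for ATP synthase. In CPM, 1 subunit (UQCRFS1, the iron-sulfur protein of complex III) had LPS values wholly above CON values and 5 had them wholly below, where 6.52% and 9.8% of tested genes did.

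Those below were 3 of 26 tested subunits of complex I (NDUFC2, NDUFS1 and NDUFS3) and 2 of 4 of complex II (SDHA and SDHB), named after their values were seen. Complex II is the succinate dehydrogenase, which has no mitochondrial gene. NDUFC2, an accessory subunit of complex I, measured 20.2, 27.3 and 26.6 CPM with saline against 17.8, 12.2 and 16.1 CPM with LPS (log2 fold change -0.68, adjusted p = 0.413, edgeR). SDHB, the iron-sulfur subunit of complex II, had 83.3, 88.8 and 98.2 CPM against 55.9, 79.3 and 49.6 CPM (log2 fold change -0.55, adjusted p = 0.496). The members of lowest unadjusted p in each direction for the other cases were NDUFB6 (log2 fold change 0.65), SDHD (0.20), UQCR10 (-0.20), COX5A (0.29), NDUFA4 (-0.34), ATP5F1D (0.61) and ATP5PB (-0.39), with adjusted p values from 0.468 to 0.880 (edgeR).

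CYCS, the electron carrier cytochrome c that also acts in apoptosis, measured 42.6, 11.5 and 25.5 CPM with saline against 87.4, 34.3 and 360.4 CPM with LPS. Its highest value was in LPS replicate 3, the library with the lowest mitochondrial share, and LPS replicate 2 lay within the CON range. The edgeR log2 fold change came to 2.59 (standard error 0.82, adjusted p = 0.262). DESeq2 gave 2.65 with an adjusted p of 0.00796, in a fit that called 2.81% of the genes it tested. Without LPS replicate 2 edgeR gave 3.08 with an adjusted p of 0.0250, in a fit that called 7.2%. The value without LPS replicate 3 was 1.21. Over its alternatives the adjusted p of CYCS ran from 2.01e-07 without the filter on low counts, where 3.76% of genes were called, to 0.689 without CON replicate 1.

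Of 55 genes for mitochondrial transcription, RNA processing and the control of mitochondrial number, 50 were tested and edgeR called 0, with a median log2 fold change of 0.13. They include the proteins that copy mitochondrial DNA into RNA. POLRMT, the mitochondrial RNA polymerase, measured 44.0, 61.4 and 91.2 CPM with saline against 115.7, 51.4 and 97.1 CPM with LPS. TFAM, which packs mitochondrial DNA and starts its transcription, had 22.6, 14.2 and 15.8 CPM against 14.8, 16.8 and 21.0 CPM. The initiation factor TFB2M had 4.01, 1.25 and 4.63 CPM against 3.04, 2.28 and 9.94 CPM, and the elongation factor TEFM had 3.65, 2.81 and 4.14 CPM against 3.91, 3.43 and 2.86 CPM. The groups overlapped in each of these genes. In CPM, 2 of the 50 had LPS values wholly above CON values and 1 wholly below, where 6.52% and 9.8% of tested genes did. Those above were TFB1M, an rRNA methyltransferase, and POLG, the mitochondrial DNA polymerase, named after their values were seen. Their adjusted p values were 0.851 and 0.748 (edgeR).

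Among genes that act on mitochondrial RNA after transcription, LRPPRC, which stabilises mitochondrial mRNAs, measured 59.0, 32.1 and 26.2 CPM with saline against 27.2, 29.0 and 52.0 CPM with LPS. Its partner SLIRP was below the filter, with 0.489 to 1.34 CPM in all libraries. ELAC2, the enzyme that cuts precursors at the end of tRNAs, had 35.3, 39.6 and 65.3 CPM against 95.7, 55.5 and 71.0 CPM (log2 fold change 0.66, adjusted p = 0.481, edgeR). The RNA-degrading pair PNPT1 and SUPV3L1 had 6.04 to 18.7 and 6.85 to 10.7 CPM in all libraries, and the poly(A) polymerase MTPAP had 8.32 to 22.0 CPM. None of these separated the groups.

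Among regulators of mitochondrial number, PPARGC1A, a coactivator induced by fasting in liver, measured 15.2, 19.0 and 12.3 CPM with saline against 16.3, 16.5 and 75.1 CPM with LPS, so LPS replicate 3 alone was high. The fitted log2 fold change of PPARGC1A was 1.23 with all libraries and 0.10 without that one. ESRRA, a nuclear receptor that works with it, had 12.8, 21.8 and 27.0 CPM against 70.7, 42.6 and 20.9 CPM, with LPS replicate 3 within the CON range (log2 fold change 1.12, adjusted p = 0.368, edgeR). PPARGC1B had 7.76 to 16.0 CPM and NRF1 9.46 to 14.6 CPM in all libraries, with overlapping groups. PPARA, a receptor for fatty acids, was singled out after its values were seen. It measured 79.4, 66.8 and 75.6 CPM with saline against 32.2, 57.6 and 27.7 CPM with LPS (log2 fold change -0.92, adjusted p = 0.329, edgeR). These values did not overlap, and PPARA was the 1 of the 50 tested genes wholly below, where 9.8% of all tested genes were.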

How the data were processed

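Unnormalized read counts for each gene were deposited by the authors for 6 input libraries of polyadenylated, sonicated liver RNA sequenced on Illumina. The m6A-IP libraries were not analysed here. The submitters' processing notes name cutadapt 1.9.3, HISAT2 and the builds galGal6 and hg38, neither of which is a pig genome. The pig build, the counting program, its strand setting and its treatment of reads on overlapping genes or on nuclear copies of mitochondrial DNA were not given in the sources used here. CON replicates 1 and 2 have 2 sequencing entries each and 1 column each. The number of unmapped sample columns was 0.

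The test was that of edgeR 4.0.16 in R 4.3.3 (filterByExpr with a minimum count of 10, TMM, glmQLFit with robust settings, glmQLFTest, Benjamini-Hochberg adjustment over all tested genes). A call needed an adjusted p under 0.05 with a fold over 1.5. CPM values are TMM-scaled, and shares, make-up and ratios use the counts themselves. Alternatives were RLE factors, total counts, no filter, limma-voom (limma 3.58.1), a filter of 10 counts in all libraries, DESeq2 1.42.0, no fold threshold, factors without mitochondrial genes, a replicate block and leaving out each library. Scaling to the mitochondrial total was added after the data were seen. The code was tested on simulated data. Pairs of libraries differed beyond sampling noise (lowest chi-square 32.7 per gene).

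Text names each mitochondrial gene past the filter, the 3 tRNA genes of highest mean CPM, a fixed set of nuclear genes, and per complex the member of lowest p in each direction. Symbols came from a table of gene names (13 of 37 mitochondrial genes). The members, gene lists and marker lists were chosen with earlier results of these data known.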

Additional observations from a re-analysis of the deposited data

How the results depend on the processing

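With all 6 libraries edgeR called 7 genes over the whole table, 0 mitochondrial genes and 0 genes of the nuclear lists. These numbers were 12 over the whole table with total counts, 0 with at least 10 counts in every library, 885, 2 and 1 without the filter on low counts, and 416, 1 and 1 with DESeq2. Leaving out single libraries gave 0 to 982, 0 to 1 and 0 to 2, with 58 and 1 (the tRNA gene before ATP8, which passed the filter there through the LPS libraries where it is high) without LPS replicate 3 and 982 and 2 (CYCS, and PPARA, log2 fold change -1.30, adjusted p = 0.0403, with up to 0.722 in its other fits) without LPS replicate 2. Deviations from the group mean had correlations of -0.239, 0.219 and 0.0289 between same-numbered libraries. Between differently numbered libraries they ran from -0.251 to 0.220. Deviations within a group of 3 are tied to each other, so these values cannot settle whether libraries were paired. The replicate numbers were not taken as pairs in the main fit. With a replicate block edgeR called 51 genes, 0.399% of those tested, 1 of them mitochondrial (ATP8, log2 fold change 7.76, adjusted p = 0.0372), and the block changed no other call in the lists. Scaling to total counts moved the median log2 fold change of all genes from 0.0056 to -0.12, and scaling to the mitochondrial total moved it to -0.29.

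Signs changed for 7 genes, none of them called with all libraries. With total counts ATP6 was at -0.055 and SDHD at -0.018, ATP6 was at -0.0021 without the filter and at -0.0085 with at least 10 counts in every library, and with scaling to the mitochondrial total the shorter rRNA was at -0.18, ATP6 at -0.28 and ND4L at -0.014. Leaving out single libraries gave -0.22 to 0.42 for the shorter rRNA, -0.12 to 0.38 for ATP6, -0.16 to 0.67 for ND4L, -0.53 to 0.16 for ND5, -0.34 to 0.18 for CYTB, -0.26 to 0.45 for SDHD and -0.32 to 1.00 for TFB2M. Without changing sign, ATP8 ranged from 6.92 to 10.62, ND1 from 0.96 to 1.86, COX2 from 0.11 to 0.97, CYCS from 1.21 to 3.11 and PPARGC1A from 0.10 to 1.59. Of the log2 fold changes recomputed, 431 kept direction and call, 20 changed sign and 7 became calls (ATP8 and CYCS 3 times each, PPARA once). The difference in percent of mitochondrial counts was -3.47 in place of -2.18 for CYTB when genes overlapping on the same strand were left out and -3.24 in place of -1.64 for ATP6 with counts per kilobase. Both settings take the percent of another total, so these differences and the first ones are not on the same scale. Of the 22 tRNA genes, 21 fell below the filter on low counts.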
